A study of Homo sapiens with 4 samples.

Results

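The genes described here encode the chains of collagens and laminins, which are proteins of the extracellular matrix, and the chains of integrins, the receptors by which cells bind that matrix. They were chosen by symbol alone, from probe sets that the platform annotation assigns to a single gene, with the brightest probe set kept for each gene. The rule found 83 of the 18417 genes measured. Of these, 53 are matrix ligand chains (43 collagens and 10 laminins) and 25 are integrin receptor chains (17 alpha and 8 beta). The other 5 match the rule by symbol but are no collagen, laminin or integrin chain: ITGB1BP1, ITGB1BP2, ITGB3BP, ITGBL1 and the antisense RNA COL18A1-AS1. The chains LAMA3, COL17A1 and ITGA1 were not analysed here.

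RNA came from H1299 cells, an established line of human lung cancer that lacks p53 of its own, carrying a stable tet-on construct that the series title gives as mouse p53 and the labels as wtp53. Induced cells had been given 0.5 µg/mL doxycycline for 24 hours, and uninduced cells of the same line were taken before induction; the medium held tet-free serum. Each group has 2 arrays, which the labels call technical replicates, so p-values measure only the spread between these arrays. No array came from doxycycline-treated cells without the construct, and whether the line is a single clone is not given in the sources used here.

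Collagens assemble into fibrils, networks and sheets, and laminins, each built of an alpha, a beta and a gamma chain, form the basement membrane together with type IV collagen. An integrin is a pair of an alpha and a beta chain that spans the cell membrane. The pair decides the ligand: some alpha chains bind collagen, others laminin, and others the Arg-Gly-Asp motif of fibronectin and vitronectin. Inside the cell the beta chain is tied to actin through talin and kindlin, which makes integrins the core of focal adhesions.

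The stretches before the start sites of 4 chains that moved at least 2-fold are shown because they include a rise and a fall of both a laminin and an integrin. They are the 250 bases upstream of the RefSeq start (GRCh38.p14), 5′ to 3′ on the gene's strand. Capitals mark GGGCGG, the GC box bound by SP1, and CCAAT, each on either strand. The regions are chr7:20330650-20330899, chr1:183023170-183023419 and chr5:52989102-52989351 on the plus strand and chr7:108003162-108003411 on the minus strand.
ITGB8, rose: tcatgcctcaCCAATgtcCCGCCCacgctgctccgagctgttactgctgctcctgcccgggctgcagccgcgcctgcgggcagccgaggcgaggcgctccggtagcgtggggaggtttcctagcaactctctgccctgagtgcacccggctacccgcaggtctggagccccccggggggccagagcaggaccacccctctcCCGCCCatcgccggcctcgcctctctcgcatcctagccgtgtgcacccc
LAMC1, rose: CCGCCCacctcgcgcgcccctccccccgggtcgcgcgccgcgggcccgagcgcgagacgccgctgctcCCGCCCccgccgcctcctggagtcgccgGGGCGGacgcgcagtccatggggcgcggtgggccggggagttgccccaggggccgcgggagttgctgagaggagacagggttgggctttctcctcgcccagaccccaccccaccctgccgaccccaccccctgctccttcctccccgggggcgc
ITGA2, fell: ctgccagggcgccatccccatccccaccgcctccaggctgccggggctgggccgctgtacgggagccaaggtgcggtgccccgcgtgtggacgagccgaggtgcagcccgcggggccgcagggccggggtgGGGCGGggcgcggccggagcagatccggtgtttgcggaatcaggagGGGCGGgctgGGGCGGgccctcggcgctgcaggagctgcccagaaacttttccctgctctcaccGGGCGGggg
LAMB1, fell: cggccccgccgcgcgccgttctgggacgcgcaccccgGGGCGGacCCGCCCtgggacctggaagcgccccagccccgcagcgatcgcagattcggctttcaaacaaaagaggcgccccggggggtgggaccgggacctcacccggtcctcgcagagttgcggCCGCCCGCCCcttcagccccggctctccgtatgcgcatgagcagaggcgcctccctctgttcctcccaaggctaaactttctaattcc
The share of G and C was 71.2% for ITGB8, 79.6% for LAMC1, 76.4% for ITGA2 and 70.4% for LAMB1. GC boxes were found 2, 3, 4 and 4 times in that order, with adjacent boxes overlapping in LAMB1. RefSeq promoter windows of 300 bases (250 before and 50 after the start) were matched for 55 of the 78 chains. A GC box stood in 8 of the 14 matched chains that rose, 8 of the 10 that fell and 18 of the 31 others. It stood in 48.3% of all 27305 genes of the promoter table. CCAAT stood in 3, 3 and 11 of the same groups and in 39.7% of all genes. The p53 half-site consensus, searched on both strands, matched in 0 of these 55 chains and in 8.06% of all genes. The absence of a match says only that these letters are not in these windows.

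Values are log2 expression levels as deposited, and differences are induced minus uninduced on the log2 scale, with the SE of limma's moderated test and p-values adjusted by Benjamini-Hochberg over all 18417 genes. A gene is said to have risen or fallen where that adjusted p was under 0.05. CDKN1A and MDM2, known targets of p53, rose by 3.43 (SE 0.089, adjusted p = 6.11e-07) and 2.89 (SE 0.082, adjusted p = 7.83e-07). The arrays hold no detection call. As a guide, 27 genes restricted to other tissues had mean levels from 3.48 to 8.49, with a 75th percentile of 6.64. Of these 27 genes 3 passed: PAX6 fell by 0.72, and MYL2 and CD3E rose by 0.32 and 0.26. Calls of such size thus also occurred in the guide list. A chain under 6.64 in both groups is called dim below. Levels of different probe sets give no order of abundance. Of 6 markers of carcinoma lines 3 passed, where 45.1% of all genes did. KRT8 rose by 1.15 (SE 0.131, adjusted p = 0.000241), while VIM fell by 0.40 (SE 0.084, adjusted p = 0.00556) and CDH2 fell by 0.35 (SE 0.083, adjusted p = 0.011). KRT18, CDH1 and EPCAM did not pass, with differences of -0.095, -0.005 and 0.055. CDH1 and EPCAM were under 6.64 in both groups. Of 6 lung epithelium markers, 2 passed: SCGB1A1 rose by 2.03 (SE 0.094, adjusted p = 3.15e-06) and SFTPC by 0.30 (SE 0.087, adjusted p = 0.0263), and the summed levels of the list were 40.42 and 39.83 uninduced and 43.14 and 42.05 induced. Of 7 endothelial markers, 1 (TEK) passed, with summed levels of 41.54 and 41.26 uninduced and 42.93 and 41.44 induced. Of 8 fibroblast markers, 1 (FBLN1, which fell) passed, with mean levels from 3.55 to 8.26, 2 of them at or above 6.64. The part of these shifts in the results was not tested. In RNA from a whole culture, fewer cells expressing a gene and less RNA per cell cannot be told apart.

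Across the family, 31 of 83 genes passed the test, 19 higher and 12 lower, against 45.1% of all genes tested (20.6% higher and 24.6% lower). Changes of at least 2-fold were called for 10 of 83, 4 up and 6 down, against 13.2% of all genes. Of 53 ligand chains, 16 passed, which is 30.2%, with 13 higher and 3 lower. Of 25 receptor chains, 12 passed, which is 48.0%, with 5 higher and 7 lower. Changes of at least 2-fold made up 7.55% of the ligand chains and 24.0% of the receptor chains. The median absolute difference was 0.14 for ligand chains, 0.25 for receptor chains and 0.23 for all genes. The signed medians were 0.095, -0.025 and 0.00. The classes were not tested against each other.

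Of the 53 ligand chains 21 were dim, and of the 25 receptor chains 8. A low chain that rose past 6.64, such as ITGB8 or COL15A1, is not counted as dim, so calls were not compared between dim and other chains. With genes under the 40th percentile of mean level left out, 7515 of 11053 genes were called. Of the chains left, 14 of 27 ligand and 9 of 10 receptor chains were called. That filter uses the mean over both groups, so a chain's own change enters it. Leaving out uninduced array 1, uninduced array 2, induced array 1 or induced array 2 left 9, 7, 11 and 9 ligand calls and 10 receptor calls each time. Calls over all genes went from 8311 to 5043, 4959, 6765 and 6904 in the same fits. Each such fit leaves a group with 1 array, so the spread came from the other group, pooled over genes by limma, and the lone array is assumed to vary like it. The adjusted p-values given below without an array are from these fits.

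**Figure D1:**
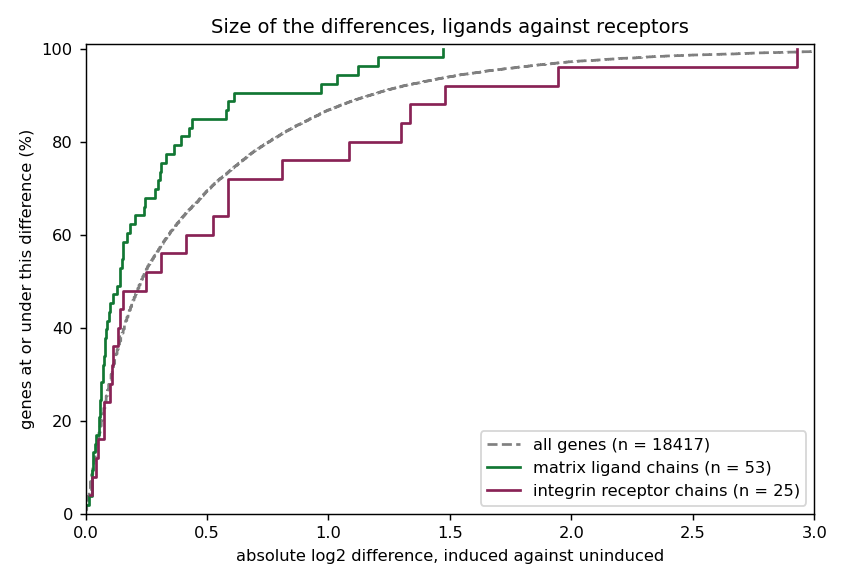
Cumulative share of genes (vertical axis, %) by the absolute log2 difference between induced and uninduced arrays (horizontal axis), for 53 matrix ligand chains, 25 integrin receptor chains and all 18417 genes. The medians are 0.14 for ligand chains and 0.25 for receptor chains, and the largest difference, that of ITGB8, is 2.93.

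Among receptors, the beta chains held the largest difference of the family. ITGB8, which pairs with ITGAV and is known for activating latent TGF-beta, stood at 5.57 and 5.65 uninduced and at 8.61 and 8.47 induced. It rose by 2.93 (SE 0.091, adjusted p = 8.55e-07), from a level below 6.64, where the arrays give no detection call, so no exact fold is given. ITGB5, another partner of ITGAV and a vitronectin receptor chain, stood at 10.43 and 10.39 uninduced and at 9.04 and 9.18 induced, and fell by 1.30 (SE 0.089, adjusted p = 1.86e-05). In both chains the groups were far apart relative to the spread of their arrays, in opposite directions.

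ITGB1, the common partner of most alpha chains, stood at 11.66 and 11.77 uninduced and at 11.11 and 11.15 induced, and fell by 0.59 (SE 0.086, adjusted p = 0.000932). ITGB3, a vitronectin and fibrinogen receptor chain, stood at 7.56 and 7.54 uninduced and at 8.07 and 8.20 induced, and rose by 0.59 (SE 0.088, adjusted p = 0.00102). ITGB4, which joins ITGA6 in hemidesmosomes, stood at 6.83 and 6.70 uninduced and at 7.21 and 7.15 induced, and rose by 0.42 (SE 0.089, adjusted p = 0.00629). The groups did not overlap in any of these 3, which holds for 66.8% of all genes. The ITGB4 difference was 0.35 to 0.48 with 1 array left out, and the adjusted p was then 0.0526 and 0.098 without uninduced arrays 1 and 2, and 0.072 and 0.0555 without induced arrays 1 and 2. The epithelial chain ITGB6 and the leukocyte chains ITGB2 and ITGB7 had differences of -0.075, -0.12 and -0.025 and did not pass.

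Of the alpha chains, 7 of 17 passed, which is 41.2% against 45.1% of all genes, 2 higher and 5 lower. ITGA4, the VCAM1 and fibronectin receptor chain best known from leukocytes, stood at 8.99 and 9.14 uninduced and at 7.04 and 7.20 induced. It fell by 1.95 (SE 0.099, adjusted p = 4.68e-06), the largest fall among the 83 genes. ITGA2, a collagen receptor chain, stood at 10.22 and 10.25 uninduced and at 8.66 and 8.85 induced, and fell by 1.48 (SE 0.095, adjusted p = 1.36e-05). ITGA5, the fibronectin receptor chain, stood at 9.55 and 9.47 uninduced and at 8.40 and 8.45 induced, and fell by 1.09 (SE 0.084, adjusted p = 3.41e-05). All 3 of these alpha chains pair with ITGB1. Their groups did not overlap, as in 66.8% of all genes.

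ITGA10, a collagen receptor chain of cartilage, fell by 0.53 (SE 0.081, adjusted p = 0.00117), from 6.78 and 6.75 to 6.24 and 6.24. ITGA6, a laminin receptor chain, stood at 11.15 and 11.29 uninduced and at 10.83 and 10.99 induced, and fell by 0.31 (SE 0.098, adjusted p = 0.0358). That call ended when arrays were centred on their medians (adjusted p = 0.0698), without uninduced array 1 or 2 (0.125 and 0.277) and without induced array 1 or 2 (0.178 and 0.0744), with differences of -0.23 to -0.39. ITGA3, another laminin receptor chain, stood at 10.62 and 10.51 uninduced and at 10.65 and 10.63 induced, a difference of 0.075 (SE 0.086, adjusted p = 0.55) that did not pass.

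ITGAV and ITGAM were the alpha chains that rose. ITGAV, the alpha chain of vitronectin receptors, stood at 10.95 and 11.03 uninduced and at 11.75 and 11.85 induced, and rose by 0.81 (SE 0.087, adjusted p = 0.000179). ITGAM, the CD11b chain of myeloid cells, stood at 7.67 and 7.60 uninduced and at 8.97 and 8.97 induced, and rose by 1.34 (SE 0.083, adjusted p = 1.12e-05). Its beta partner ITGB2 had a difference of -0.12 (SE 0.108, adjusted p = 0.459). Of 6 blood cell markers, 1 (CD3E) passed, and their summed levels were 40.10 and 39.37 uninduced and 40.45 and 39.61 induced. PTPRC, which white blood cells carry, had a difference of 0.13 from 3.98. CD68, of the same list, stood at 11.77 and 11.71 uninduced and at 11.96 and 11.88 induced, and did not pass. Mean levels of the 6 markers reached 11.83, and 2 were at or above 6.64. The part of blood cells in the ITGAM difference was not tested. The remaining alpha chains did not pass: ITGA7, ITGA8, ITGA9, ITGA11, ITGAE, ITGAL and ITGAX were dim, and ITGA2B and ITGAD had differences of 0.14 and -0.10.

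**Figure D2:**
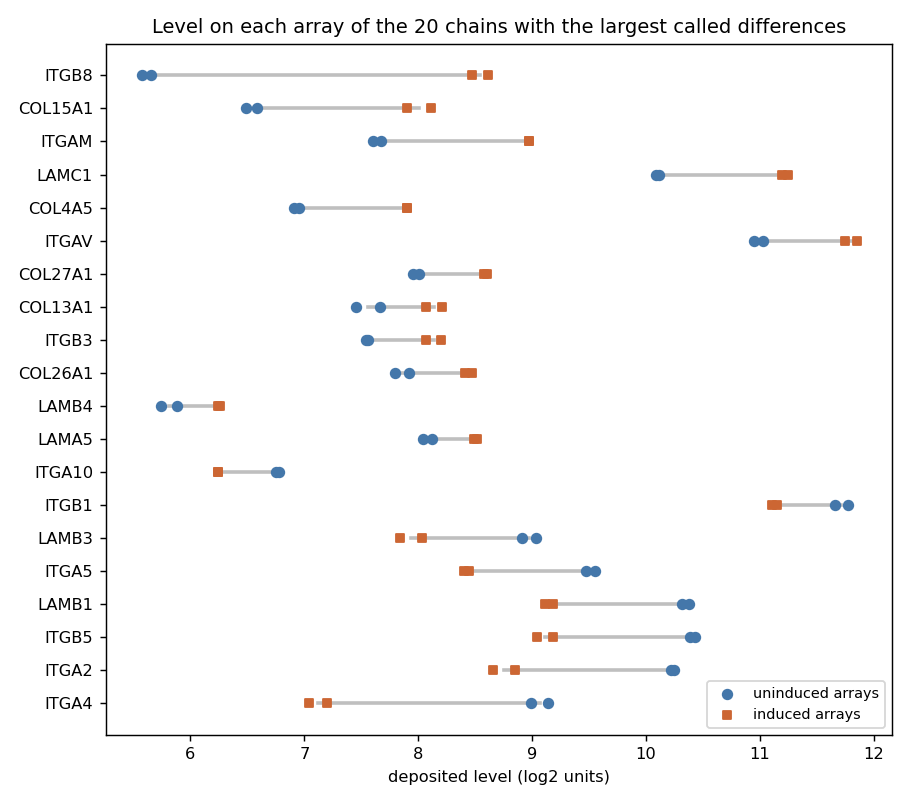
Deposited level on each array (horizontal axis, log2 units) of the ligand and receptor chains with the largest called differences, ordered by difference; points are the 2 uninduced and the 2 induced arrays, and bars join the group means. The chains were picked for their called differences, and their groups do not overlap, as in 66.8% of all genes. ITGB8 rose the most (2.93) and ITGA4 fell the most (-1.95).

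An integrin reaches the surface as a pair, so the calls were set side by side for 24 known human alpha and beta pairs, 23 of which had both chains measured. In 5 pairs both chains fell: ITGB1 with ITGA2, ITGA4, ITGA5, ITGA6 and ITGA10. In 2 pairs both chains rose, ITGAV with ITGB3 and ITGAV with ITGB8. In 3 pairs the chains moved in opposite directions: ITGAV with ITGB1, ITGAV with ITGB5, and ITGA6 with ITGB4. In 9 pairs only 1 chain was called, and in 4 neither was. These pairs share chains, ITGB1 above all, and are not independent of each other. Taken singly, 24.6% of all genes were called lower and 20.6% higher. The calls of ITGA6 and ITGB4 did not hold in every fit, as given above, and ITGA10 fell to a level below 6.64. Transcript levels do not give the amount of a pair at the surface.

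**Figure D3:**
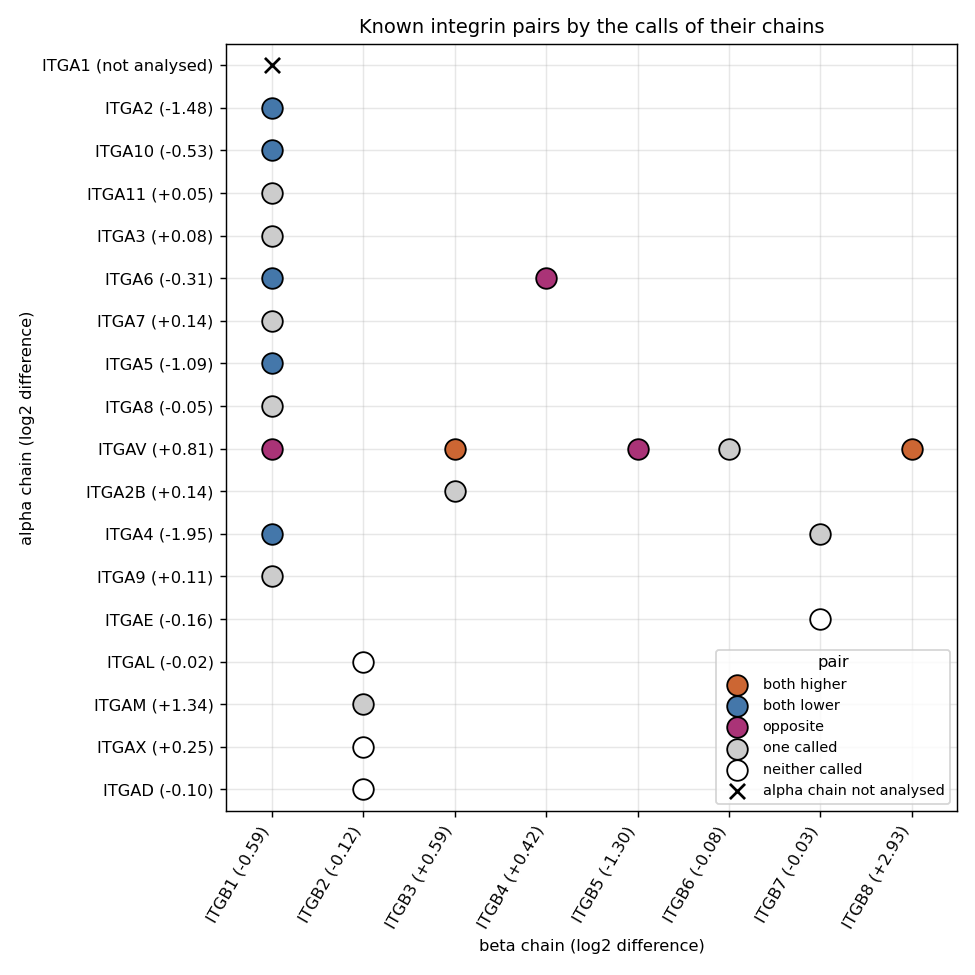
Known integrin pairs, with alpha chains on one axis and beta chains on the other; each label carries the chain's log2 difference, and the colour of a mark tells whether both chains rose, both fell, moved oppositely, or fewer were called. ITGB1 holds the 5 pairs in which both chains fell, and ITGAV the 2 in which both rose. The calls of ITGA6 and ITGB4 did not hold in every fit, and ITGA10 fell to a level below 6.64.

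Laminin chains moved in both directions. LAMC1, the gamma chain of most laminins, stood at 10.11 and 10.09 uninduced and at 11.19 and 11.25 induced, and rose by 1.12 (SE 0.082, adjusted p = 2.63e-05). LAMB1, a beta chain that joins it in many laminins, stood at 10.32 and 10.38 uninduced and at 9.11 and 9.18 induced, and fell by 1.21 (SE 0.084, adjusted p = 2.02e-05). LAMB3, the beta chain of the laminin that anchors epithelia, stood at 9.03 and 8.91 uninduced and at 8.03 and 7.84 induced, and fell by 1.04 (SE 0.100, adjusted p = 0.000101). The LAMB3 fall was under 2-fold after quantile normalization again (-0.966) and with centred arrays (-0.985). It was also under 2-fold without uninduced array 1 (-0.975) or induced array 2 (-0.94). LAMC1 and LAMB1, which join in a single trimer, thus moved in opposite directions.

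LAMA5, the alpha chain of many adult basement membranes, rose by 0.43 (SE 0.084, adjusted p = 0.00414), from 8.12 and 8.04 to 8.49 and 8.52. LAMC3, a less common gamma chain, rose by 0.37 (SE 0.093, adjusted p = 0.014), from 8.72 and 8.56 to 9.04 and 8.97. LAMB4 rose by 0.44 (SE 0.089, adjusted p = 0.00467) but was dim, from 5.88 and 5.74 to 6.24 and 6.26. With an array left out these rises kept their direction but not always their call. LAMA5 lost its call without uninduced array 1 or 2 (adjusted p = 0.0522 and 0.0765), with differences of 0.39 to 0.47. LAMB4 lost it without uninduced array 2 (0.0811) or induced array 1 or 2 (0.0601 and 0.0637), with differences of 0.37 to 0.45. LAMC3 lost it without uninduced array 1 or 2 (0.0626 and 0.149) or induced array 1 or 2 (0.118 and 0.0831), with differences of 0.29 to 0.45. LAMB2 lay at the threshold with a difference of -0.24 (SE 0.083, adjusted p = 0.0501), and passed without genes under the 40th percentile of mean level (0.0186) and with an intensity trend and robust prior (0.0228). LAMA1, LAMA2 and LAMA4 were dim, with differences of 0.14, -0.055 and -0.075.

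Among collagens, 10 of 43 passed, which is 23.3% against 45.1% of all genes. Several collagens were dim, and the part of their level in this share was not tested. Of these 9 were higher and 1 lower, where 20.6% and 24.6% of all genes were. Over the 43 chains the median absolute difference was 0.10. COL15A1, a basement membrane collagen, stood at 6.58 and 6.49 uninduced and at 7.90 and 8.11 induced. It rose by 1.47 (SE 0.101, adjusted p = 1.83e-05), again from a level below 6.64. With the values as deposited it was the only collagen called at 2-fold or more. COL18A1, its relative and the source of endostatin, rose by 0.29 (SE 0.088, adjusted p = 0.0327), from 8.72 and 8.59 to 8.96 and 8.92. COL27A1, a fibrillar collagen of cartilage, rose by 0.61 (SE 0.082, adjusted p = 0.000583), from 8.01 and 7.95 to 8.60 and 8.58. COL13A1, a transmembrane collagen, rose by 0.59 (SE 0.104, adjusted p = 0.00251), from 7.66 and 7.45 to 8.21 and 8.07. COL26A1 rose by 0.58 (SE 0.088, adjusted p = 0.00108), from 7.92 and 7.80 to 8.47 and 8.41. The groups did not overlap in any of these 5, as in 66.8% of all genes.

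COL6A1, of the beaded filaments of type VI, rose by 0.40 (SE 0.087, adjusted p = 0.00699), from 8.61 and 8.49 to 8.94 and 8.95. COL19A1 and COL21A1 rose by 0.31 (SE 0.099, adjusted p = 0.0373) and 0.31 (SE 0.105, adjusted p = 0.0496) but were dim. COL12A1, which decorates collagen fibrils, was the 1 collagen that fell, by 0.33 (SE 0.081, adjusted p = 0.0122), from 8.17 and 8.20 to 7.87 and 7.84. Several of these changes kept their direction but lost their call with 1 array left out. Over the fits without a call, the difference was -0.32 to -0.35 for COL12A1, 0.22 to 0.35 for COL18A1, 0.34 to 0.46 for COL6A1, 0.48 to 0.66 for COL13A1, 0.22 to 0.41 for COL19A1 and 0.18 to 0.34 for COL21A1. Without uninduced array 1 the adjusted p was 0.0933 for COL12A1, 0.0923 for COL18A1, 0.156 for COL19A1, 0.312 for COL21A1 and 0.0534 for COL6A1. Without uninduced array 2 it was 0.112, 0.217, 0.285, 0.239 and 0.0976 for the same genes, and 0.0739 for COL13A1. Without induced array 1 it was 0.134 for COL18A1, 0.158 for COL19A1, 0.0619 for COL6A1 and 0.0803 for COL13A1. Without induced array 2 it was 0.103 for COL18A1, 0.055 for COL19A1, 0.136 for COL21A1, 0.0636 for COL6A1 and 0.0525 for COL13A1. COL19A1 also lost it with an intensity trend and robust prior (0.0519), and COL21A1 with that setting (0.0607), after quantile normalization again (0.0578) and with replicate number as a block (0.0666).

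The collagens most abundant in connective tissue did not pass. COL1A1, the main chain of type I collagen, stood at 7.96 and 7.95 uninduced and at 7.99 and 7.95 induced, a difference of 0.015 (SE 0.081, adjusted p = 0.911). COL1A2 and COL3A1 had differences of 0.005 (SE 0.112) and 0.025 (SE 0.103). Levels of COL1A1, COL1A2 and COL3A1 lay within the 3.48 to 8.49 of the genes restricted to other tissues. Their flat values thus do not show that they were expressed. Of 11 fibrillar chains, COL27A1 alone was called. COL5A1, with a difference of 0.30 (SE 0.107, adjusted p = 0.0549), passed after quantile normalization again (0.0269), with centred arrays (0.0195), with an intensity trend and robust prior (0.0496) and with replicate number as a block (0.0416). COL2A1, COL5A2, COL5A3, COL11A1, COL11A2 and COL24A1 had differences between -0.03 and 0.21. The summed levels of the 8 fibroblast markers were 44.55 and 43.92 uninduced and 44.31 and 44.20 induced.

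The fibril-associated chains COL9A1, COL9A2, COL9A3, COL14A1, COL16A1, COL20A1 and COL22A1 had differences between -0.03 and 0.15. The transmembrane chains COL23A1 and COL25A1 had differences of 0.10 and 0.16, and the anchoring fibril chain COL7A1 of 0.08. COL6A3, COL6A5, COL6A6 and COL28A1 were dim, and COL6A2, a partner of COL6A1, had a difference of 0.17 (SE 0.098, adjusted p = 0.217), from 8.83 and 8.67 to 8.99 and 8.85. Without induced array 1, COL6A3 had a difference of -0.32 (adjusted p = 0.0432). Of the short-chain network collagens, COL8A1, COL8A2 and COL10A1 had differences of 0.16, 0.07 and 0.25, and COL10A1 passed with centred arrays (0.0497).

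Type IV collagen, the network of basement membranes, has 6 chains, of which COL4A5 alone was called. COL4A5 stood at 6.95 and 6.91 uninduced and at 7.90 and 7.90 induced, and rose by 0.97 (SE 0.081, adjusted p = 4.92e-05). Its difference passed 2-fold after quantile normalization again (1.025) and with centred arrays (1.02). COL4A6, which lies head to head with it on the X chromosome, stood at 6.16 and 6.23 uninduced and at 6.23 and 6.08 induced, a difference of -0.04 (SE 0.092, adjusted p = 0.782). Its groups overlapped, and it was dim. Whether the pair differed from each other was not tested. COL4A6 has 2 RefSeq windows, and that at chrX:108438423-108438672 does not overlap the window of COL4A5. The start of the other lies 380 bases from that of COL4A5, so these windows share the stretch chrX:108439588-108439708 (GRCh38.p14). It is shown on the plus strand, that of COL4A5, with CCAAT on either strand in capitals.
COL4A5 and COL4A6, shared stretch: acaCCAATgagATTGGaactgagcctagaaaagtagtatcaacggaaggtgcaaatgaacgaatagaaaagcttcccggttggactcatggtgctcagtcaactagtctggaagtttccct
This stretch of 121 bases holds CCAAT 2 times and GGGCGG 0 times. The other head-to-head pairs did not pass, with differences of 0.19 and 0.055 for COL4A1 and COL4A2, and of 0.065 and -0.025 for COL4A3 and COL4A4.

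Chains that are direct neighbours among protein-coding genes formed 10 such pairs in the RefSeq order. In 5 pairs neither gene was called, and in 4 only 1 was: COL4A5 beside COL4A6, ITGAM beside ITGAX (0.25, adjusted p = 0.122), COL6A1 beside COL6A2, and COL19A1 beside COL9A1. In the remaining pair the calls were opposite, with LAMB1 lower and the dim LAMB4 higher.

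**Figure D4:**
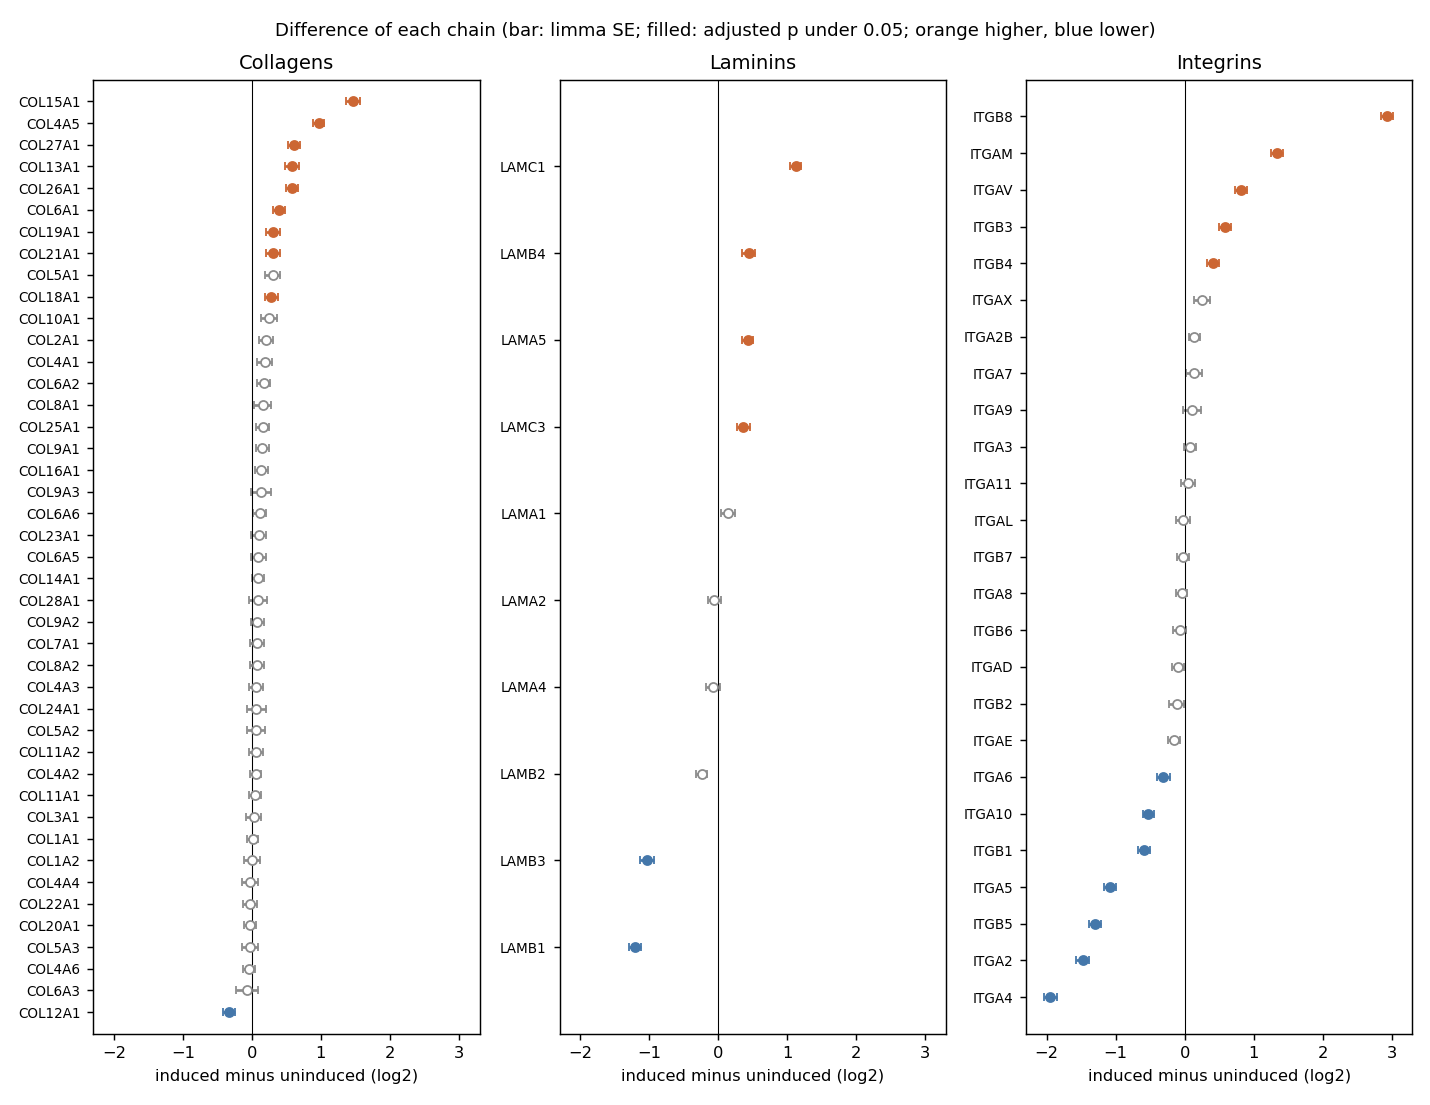
Log2 difference, induced minus uninduced (horizontal axis), of all 43 collagen, 10 laminin and 25 integrin chains; bars are limma's SE, filled symbols passed at an adjusted p under 0.05 and open symbols did not. Most collagens lie near 0, some of them dim, whereas laminins spread from -1.21 to 1.12 and integrins from -1.95 to 2.93.

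The members that are no collagen, laminin or integrin chain were of mixed direction. ITGB1BP1, which encodes ICAP1, a binding partner of the ITGB1 tail, fell by 0.72 (SE 0.083, adjusted p = 0.000269), from 10.18 and 10.11 to 9.41 and 9.45. ITGB1BP2, the muscle protein melusin, fell by 0.89 (SE 0.083, adjusted p = 8.9e-05), from 6.60 and 6.53 to 5.70 and 5.66, and was dim. ITGB3BP, the centromere protein CENP-R, rose by 0.39 (SE 0.095, adjusted p = 0.0124), from 9.61 and 9.54 to 9.87 and 10.05. That call ended without uninduced array 1 or 2 (adjusted p = 0.115 and 0.163), without induced array 2 (0.0663) and with replicate number as a block (0.0585), with differences of 0.30 to 0.42. ITGBL1 and COL18A1-AS1 did not pass, with differences of 0.07 and -0.13.

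Genes that make, join or read this matrix were taken from 5 lists, each with its 3 largest called differences named. Collagen processing genes were called in 19 of 29, 7 higher and 12 lower, against 45.1% of all genes (20.6% higher and 24.6% lower), with a median difference of -0.075. P4HA2, a collagen prolyl hydroxylase subunit, rose by 2.72 (SE 0.084), and BMP1, the procollagen C-proteinase, rose by 2.38 (SE 0.087). ADAMTS3, which trims the other end of procollagen, fell by 2.38 (SE 0.088), to an induced mean of 6.105, below 6.64. The processing genes were not tested against the collagens.

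Other matrix ligands and basement membrane genes were called in 15 of 26, 9 higher and 6 lower, against 45.1% of all genes. FBN2, a microfibril protein, rose by 2.32 (SE 0.084), and HSPG2, the basement membrane proteoglycan perlecan, rose by 1.43 (SE 0.082). FREM2, a basement membrane protein of skin, fell by 1.58 (SE 0.081), to an induced mean of 5.50, below 6.64. Non-integrin receptors were called in 8 of 13, 4 higher and 4 lower, against the same 45.1%. The collagen-binding kinase DDR1 rose by 1.45 (SE 0.089), the syndecan SDC3 by 0.87 (SE 0.109) and the laminin receptor BCAM by 0.82 (SE 0.090). DDR2, the other collagen-binding kinase, named after its value was seen, fell by 0.81 (SE 0.095). BCAM started from an uninduced mean of 6.585 and DDR2 ended at an induced mean of 6.38, both below 6.64.

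Integrin adhesion machinery was called in 19 of 37, 8 higher and 11 lower, which is 51.4% against 45.1% of all genes. Of the 3 kindlin genes, whose products activate integrins, FERMT1, the epithelial kindlin, rose by 2.10 (SE 0.082) and FERMT2, the widely expressed kindlin, fell by 1.96 (SE 0.099). FERMT3, the kindlin of blood cells, named after its value was seen, had a difference of 0.015 (adjusted p = 0.945) and did not pass. CAV1, which encodes caveolin, rose by 1.39 (SE 0.082). The talin genes TLN1 and TLN2, named after their values were seen, had differences of -0.12 and 0.14 and did not pass. Matrix proteases and their inhibitors were called in 12 of 27, 8 higher and 4 lower, which is 44.4% against the same 45.1%. PLAUR, the urokinase receptor, fell by 1.94 (SE 0.086), while the protease inhibitor SERPINE2 rose by 1.84 (SE 0.087) and the collagenase MMP1 by 1.37 (SE 0.104).

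**Figure D5:**
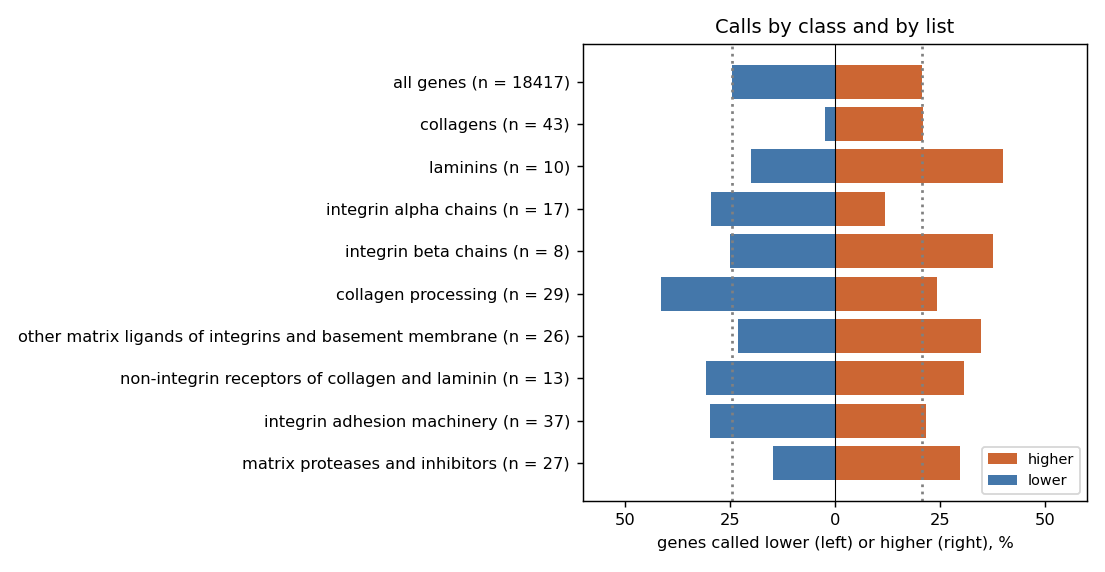
Share of genes (%) called lower (bars to the left) or higher (bars to the right) at an adjusted p under 0.05 in each class and list; lines mark 24.6% lower and 20.6% higher among all 18417 genes. Collagens have 1 fall among 43 chains, and collagen processing genes 12 among 29.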

How the data were processed

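Biotin-labelled cDNA of total RNA was hybridised to 4 Affymetrix whole-transcript arrays. The deposited values are log2 expression levels that the authors made with RMA in Affymetrix Expression Console, per the submitters' processing notes; no version, filter or build was found in the sources used here. RMA quantile normalization gives every array about the same distribution, so a shift shared by most genes would not show. The table holds 33297 probe sets: 19460 with a single symbol in the platform annotation, 1754 with several and 12083 with none. The last 2 kinds were not analysed as genes. Only the probe sets shared by PELO and ITGA1 and by PNLIP and COL1A2 are given, under other observations.

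For each gene the brightest probe set by mean was kept. The 2 induced and 2 uninduced arrays were compared with limma 3.58.1 in R 4.3.3 (lmFit and eBayes) over 18417 genes with Benjamini-Hochberg adjustment at 0.05, without a block; the code was tested on simulated data. The small number of arrays limits the precision. Pearson's r across probe sets was 0.997 between the uninduced arrays, 0.995 between the induced arrays and 0.917 to 0.921 between groups; these are correlations across genes, which are not independent replicates. No 2 arrays held identical values.

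The members and lists were chosen with earlier results of these data known. Named are chains called at 2-fold or more, the 10 next largest called chains, the 2 brightest of each class and the 3 largest called genes of each list; other genes were named by role after their values were seen. Integrin pairs were listed from general knowledge. Gene order and promoter windows came from RefSeq (GRCh38.p14); all 83 members matched its gene table and 60 had a window. Alternatives were another quantile normalization, median centring, a filter at the 40th percentile of mean level, the mean of a gene's probe sets, an intensity trend with a robust prior, a block for replicate number, dropping each array in turn and, chosen after seeing the data, leaving out dim members.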

Additional observations from a re-analysis of the deposited data

How the results depend on the processing

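Of the 31 called members, 19 were called under every alternative that tested them, 12 lost the call under at least 1, and 4 others gained it; 48 were never called. Of the named values recomputed, 210 kept direction and side of the threshold, 17 kept direction but lost the call, and 0 reversed. The filter, the mean of probe sets, the intensity trend and the block left the difference of each named chain unchanged. Direction could not reverse in those settings. Leaving out 1 array gave 4959 to 6904 calls over all genes, 19 to 24 among the members (9 to 12 higher and 10 to 12 lower), 7 to 11 among ligand chains and 10 among receptor chains. It gave medians of 0.01 to 0.20 for ligand chains and -0.07 to 0.02 for receptor chains. The receptor median was 0.025 with centred arrays and -0.45 without genes under the 40th percentile, where 10 receptor chains were left, so it has no settled sign. Centring moved the median of all genes by 0.05. Leaving out dim members by their mean level was tried after seeing the data, but a chain's own change decides whether it is left out, so those counts are not used. The replicate numbers were not shown to pair the arrays: with 2 pairs, the deviations of the first replicates correlated at 0.225 across genes. With replicate number as a block, 7820 genes, 30 members, 16 ligand chains and 12 receptor chains were called. With 2 technical replicates a group, the spread of separate cultures was not measured.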

Other observations

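Probe sets annotated to more than 1 gene were kept out of the family. The probe set shared by PELO and ITGA1, the latter a collagen-binding integrin chain, stood at 8.18 and 8.23 uninduced and at 8.31 and 8.17 induced, a difference of 0.035 (limma, adjusted p = 0.834 over all probe sets). The probe set shared by PNLIP and COL1A2 stood at 4.18 and 4.28 uninduced and at 4.23 and 4.20 induced, a difference of -0.015 (adjusted p = 0.925). Neither value can be assigned to a single gene.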
